A study of Mus musculus with 12 samples.

Results

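The circadian clock genes of the mouse aorta were examined in 4 treatment groups. They are the 10 genes Arntl, Clock, Npas2, Per1, Per2, Per3, Cry1, Nr1d1, Nr1d2 and Dbp, chosen by the gene name of each array measurement, out of 34796 gene names on the array. The 10 genes had 13 measurements, and 11 of these passed the filter on dim signal (well above background throughout a treatment group), so that 9 of the 10 genes could be tested. Gene names stand for array probes placed by the scanner files on mouse build mm9. Cry1, a repressor of the clock, was not well above background on any of the 12 arrays and has no value here. The same holds for a second Per1 measurement.

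The mice were male C57BL/6J animals of 11 to 14 weeks, and 1 array was made from the aorta of each of 12 mice on day 3. The DMSO group (n = 3) received only dimethylsulfoxide, the vehicle, and the rapamycin group (n = 3) received rapamycin, an inhibitor of the kinase mTOR, at 2 mg/kg/day in that vehicle. BA+DMSO mice (n = 3) received the challenge used as a model of aortic dissection, β-aminopropionitrile (BAPN) at 150 mg/kg/day and angiotensin II (AngII) at 1 µg/kg/min, together with vehicle. BA+rapamycin mice (n = 3) received the challenge and rapamycin. The vehicle or drug was injected once a day in every group. The whole vessel wall was taken, from the stretch upstream of the right renal artery, so that fewer cells of a type and less RNA per cell cannot be told apart. The time of day of collection is not given in the sources used here. In the DMSO group the sample titles start with "Pre", although the series record gives day 3 for all groups.

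The circadian clock is a feedback loop of transcription that runs in most cells of the body. ARNTL (also called BMAL1) pairs with CLOCK or NPAS2 and drives the Per and Cry genes, Nr1d1, Nr1d2 and Dbp through E-box sequences. PER and CRY proteins then block this pair, and the REV-ERB proteins made by Nr1d1 and Nr1d2 switch off Arntl through a separate element. DBP is an output factor that acts on D-box sequences, where NFIL3 opposes it. In the vessel wall and in other tissues Arntl mRNA peaks at about the opposite time of day to Dbp and Nr1d1 mRNA, so that levels of these genes depend strongly on the hour at which tissue is taken.

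The sequences that these factors bind are short. The stretches before the transcription start of 3 members and a site near the start of 1 more are shown because they hold such letters. They come from RefSeq (mouse build GRCm38.p6), read 5′ to 3′ on the strand of the gene. Capitals mark an E-box (CACGTG), its variant (CACGTT, which reads AACGTG on the other strand), a D-box (TTATGTAA or TTATGCAA) or a REV-ERB and ROR element (TAGGTCA).
Per1, chr11:69098699-69098948, plus strand: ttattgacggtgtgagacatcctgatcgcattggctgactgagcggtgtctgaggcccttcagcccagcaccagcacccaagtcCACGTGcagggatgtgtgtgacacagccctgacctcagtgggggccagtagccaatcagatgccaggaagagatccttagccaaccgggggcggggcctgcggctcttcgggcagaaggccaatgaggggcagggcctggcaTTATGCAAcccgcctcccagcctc
Per3, chr4:151044666-151044915, minus strand: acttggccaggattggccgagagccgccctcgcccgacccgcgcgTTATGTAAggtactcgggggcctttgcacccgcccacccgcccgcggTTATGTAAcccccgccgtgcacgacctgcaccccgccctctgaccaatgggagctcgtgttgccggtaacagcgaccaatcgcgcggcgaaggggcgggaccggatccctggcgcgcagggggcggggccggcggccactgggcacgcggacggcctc
Nr1d1, chr11:98775378-98775627, minus strand: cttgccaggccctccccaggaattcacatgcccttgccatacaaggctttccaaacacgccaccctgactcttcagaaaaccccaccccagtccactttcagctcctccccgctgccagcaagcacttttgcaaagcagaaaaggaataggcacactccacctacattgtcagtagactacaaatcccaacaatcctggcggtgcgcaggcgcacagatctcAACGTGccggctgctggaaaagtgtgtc
Arntl, chr7:113207529-113207558, plus strand: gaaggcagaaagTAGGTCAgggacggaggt
Per1 held an E-box whose first base lay at -166 from the start site and a D-box at -24, Per3 held D-boxes at -205 and -158, and Nr1d1 held the E-box variant at -28. The Arntl element lay at 31, just downstream of an annotated start. Windows of 250 bases before and 50 bases after a start were available for 9 of the 10 members, 13 windows in all, and were searched on both strands. Cry1 held an E-box at -60 and the variant at -79, and the windows of Clock, Npas2, Nr1d2 and Dbp held none of these letters. Of all 32851 such windows, 7.15% held the E-box, 4.68% its variant, 1.66% a D-box and 2.61% the REV-ERB and ROR element. A match is a description of the letters and not a measured binding site.

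All values below are log2 signal relative to the 75th percentile of signal on the same array, and each gene is compared only with itself across arrays. A difference was called where limma's test gave an adjusted p under 0.05 over all 27801 measurements tested. Arrays lay on 2 slides. Slide 1 carried the 3 DMSO arrays and rapamycin replicate 1, and slide 2 carried rapamycin replicates 2 and 3 and all 6 challenged arrays, so the challenge and the slide are nearly confounded and only the rapamycin group spans both. Array brightness, the 75th percentile before scaling, ranged from 221 to 280 intensity units for DMSO, from 257 to 337 for rapamycin, from 78.1 to 246 for BA+DMSO and from 74.6 to 109 for BA+rapamycin. All 6 smooth muscle genes read, Myh11 and Acta2 among them, were well above background on the 12 arrays, while 0 of 3 liver and 0 of 4 kidney and adrenal genes could be tested. Macrophage genes (5 to 6 of 6 called, median differences of 2.36 and 1.45) and proliferation genes (4 of 4 called, 4.80 and 4.24) were higher with the challenge on either background, and the part of these cells in any clock gene result was not tested. In the challenge, 1 of 3 tested neutrophil genes, 2 of 4 T and B cell genes, 2 of 4 brown adipocyte genes and 1 of 3 nerve genes were also called higher, against 0 of 5 endothelial, 0 of 4 white adipocyte and 0 of 4 striated muscle genes.

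**Figure D1:**
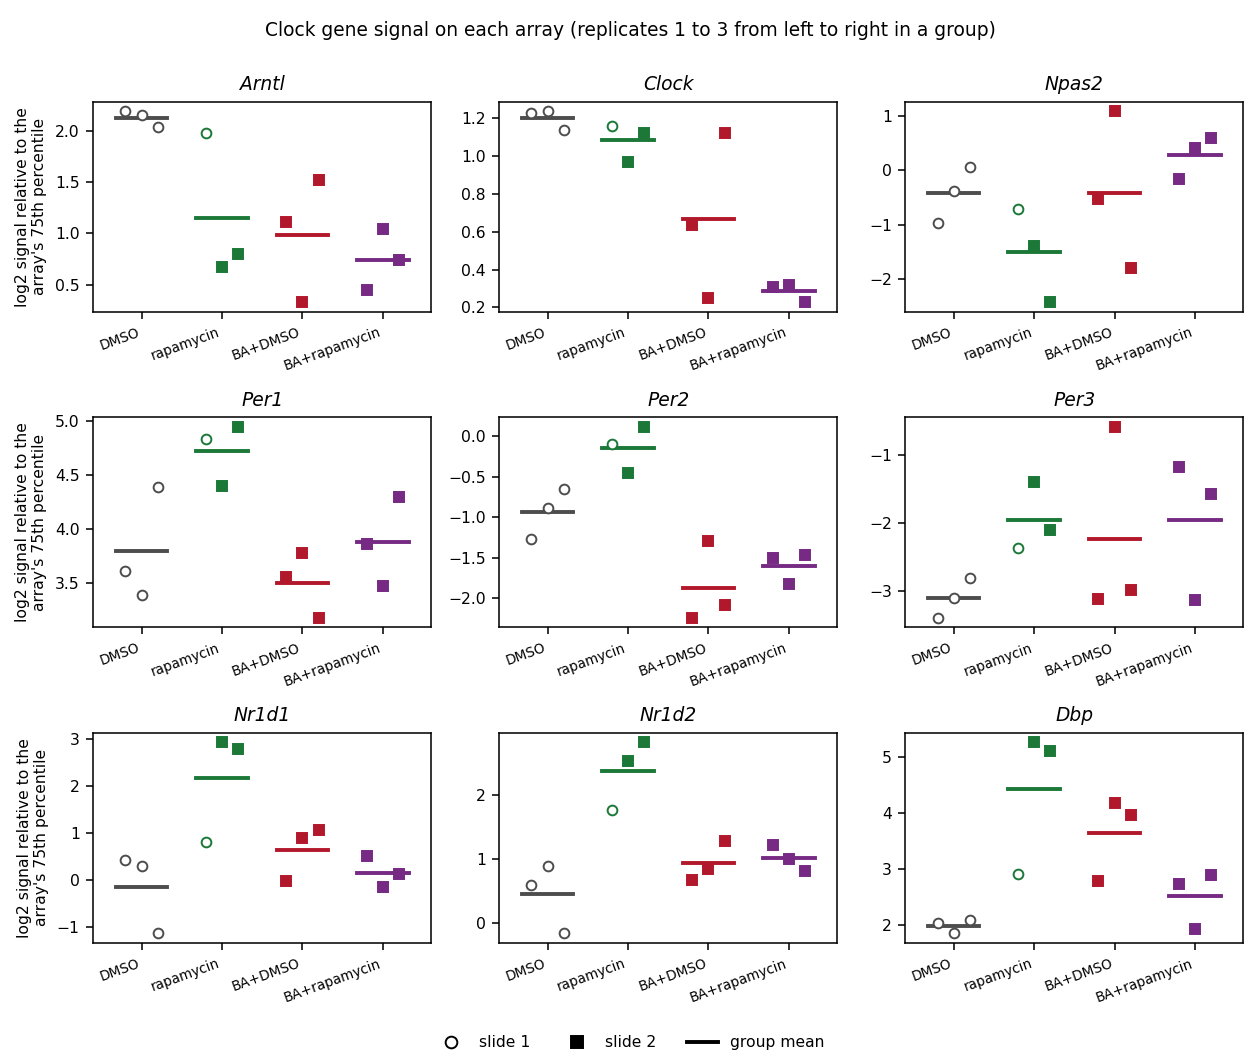
Log2 signal of the 9 tested clock genes relative to each array's 75th percentile (vertical axis, own scale in each panel) in the 4 groups, with a point for each array, open circles for slide 1, filled squares for slide 2 and lines for group means. In the rapamycin group the point from slide 1 lies apart from the other 2 for Arntl, Nr1d1 and Dbp, at 1.98, 0.82 and 2.90.

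The activators were measured as Arntl, Clock and Npas2. Arntl, the partner shared by the other 2 (probe at chr7:120457261-120457320, plus strand), gave 2.19, 2.16 and 2.04 in DMSO, 1.98, 0.68 and 0.80 in rapamycin, 1.11, 0.33 and 1.53 in BA+DMSO and 0.45, 1.05 and 0.74 in BA+rapamycin. The 3 DMSO arrays and rapamycin replicate 1 stood above all other 8 arrays, and these 4 arrays are the 4 of slide 1. By group mean the order was DMSO (2.13 ± 0.084, SD, n = 3), rapamycin (1.15 ± 0.72), BA+DMSO (0.99 ± 0.61) and BA+rapamycin (0.74 ± 0.30), and the 3 lower groups overlapped.

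Clock itself (chr5:76641377-76641436, minus strand) gave 1.23, 1.24 and 1.14 in DMSO, 1.16, 0.97 and 1.12 in rapamycin, 0.63, 0.25 and 1.12 in BA+DMSO and 0.31, 0.32 and 0.23 in BA+rapamycin. DMSO and rapamycin overlapped, BA+DMSO spread from the rapamycin range down to the BA+rapamycin range, and the BA+rapamycin arrays lay close together. Npas2, which can stand in for Clock (chr1:39418941-39419000, plus strand), gave -0.97, -0.38 and 0.062 in DMSO, -0.72, -1.39 and -2.43 in rapamycin, -0.53, 1.08 and -1.81 in BA+DMSO and -0.16, 0.41 and 0.59 in BA+rapamycin. The spread of Npas2 within groups was wide, with a pooled SD of 0.90 that exceeded 96.6% of all tested measurements, and its highest and its second lowest value both came from BA+DMSO. In BA+DMSO, Clock was lower and Npas2 higher the dimmer the array (132, 78.1 and 246 intensity units for replicates 1 to 3). The part of brightness in this spread was not tested.

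Among the repressors, the Period genes were measured on every array. Per1 (chr11:68923364-68923423, plus strand) gave 3.61, 3.39 and 4.38 in DMSO, 4.83, 4.39 and 4.94 in rapamycin, 3.55, 3.78 and 3.18 in BA+DMSO and 3.86, 3.47 and 4.30 in BA+rapamycin. All 3 rapamycin arrays lay above the 9 others, although the lowest of them (4.39) all but met the highest DMSO array (4.38). Per2 (chr1:93313046-93313105, minus strand) gave -1.26, -0.88 and -0.65 in DMSO, -0.087, -0.45 and 0.12 in rapamycin, -2.24, -1.30 and -2.08 in BA+DMSO and -1.51, -1.82 and -1.47 in BA+rapamycin. For Per2 the rapamycin arrays were highest, the DMSO arrays came next and every challenged array was lower still, with the 2 challenged groups overlapping. Per3 (chr4:150379256-150379315, minus strand) gave -3.39, -3.10 and -2.81 in DMSO, -2.37, -1.39 and -2.11 in rapamycin, -3.11, -0.59 and -2.98 in BA+DMSO and -1.19, -3.13 and -1.57 in BA+rapamycin. It was well above background on 2 of 3 arrays in each challenged group, and the challenged arrays spread from -3.13 to -0.59, across most of the range of the unchallenged ones.

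Nr1d1, which codes for REV-ERBα (chr11:98630526-98631028, minus strand), gave 0.44, 0.30 and -1.13 in DMSO, 0.82, 2.94 and 2.80 in rapamycin, -0.0030, 0.90 and 1.07 in BA+DMSO and 0.52, -0.15 and 0.13 in BA+rapamycin. Rapamycin replicates 2 and 3 exceeded each of the other 10 arrays, while rapamycin replicate 1 lay inside the BA+DMSO range. Nr1d2, which codes for REV-ERBβ (chr14:19036568-19036627, minus strand), gave 0.60, 0.90 and -0.16 in DMSO, 1.77, 2.53 and 2.83 in rapamycin, 0.68, 0.85 and 1.28 in BA+DMSO and 1.22, 1.01 and 0.82 in BA+rapamycin. Here all 3 rapamycin arrays lay above the 9 others, and these 9 overlapped between groups. A second Nr1d2 measurement gave the same order of rapamycin over the rest, from 1.05 to 2.19 in rapamycin and from -1.02 to 0.71 elsewhere.

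Dbp, the output factor (chr7:52965461-52965520, plus strand), gave 2.04, 1.85 and 2.08 in DMSO, 2.90, 5.26 and 5.10 in rapamycin, 2.79, 4.18 and 3.97 in BA+DMSO and 2.73, 1.92 and 2.89 in BA+rapamycin. Its highest arrays were rapamycin replicates 2 and 3, followed by BA+DMSO replicates 2 and 3, and the 3 DMSO arrays lay close together. By group mean the order was rapamycin (4.42 ± 1.32, SD, n = 3), BA+DMSO (3.65 ± 0.75), BA+rapamycin (2.51 ± 0.52) and DMSO (1.99 ± 0.12), with overlap between each pair of neighbours. A second Dbp measurement gave group means of 4.57, 3.73, 2.35 and 1.77 in the same order.

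The spread within the rapamycin group was wide for several clock genes. The SD of the 3 rapamycin values was 1.32 for Dbp, above 99.9% of all tested measurements, 1.19 for Nr1d1 (above 99.8%), 0.86 for Npas2 (above 99.1%) and 0.72 for Arntl (above 98.3%), where the median of all tested measurements was 0.17. It was 0.10 for Clock, above 23.2% of them. Among the DMSO arrays, all on slide 1, the SD was also wide for Nr1d1 (0.87, above 97.7%), Nr1d2 (0.55, above 92.9%), Per1 (0.52, above 92.2%) and Npas2 (0.52, above 92.0%), and it was small for Dbp (0.12, above 38.9%) and Arntl (0.084, above 22.7%). Rapamycin replicate 1 differed from the mean of replicates 2 and 3 by -2.28 for Dbp, and 0.036% of all tested measurements had a larger absolute difference. The same difference was -2.05 for Nr1d1 (0.0683% larger), 1.24 for Arntl (0.558%), 1.18 for Npas2 (0.698%), -0.91 for Nr1d2 (1.63%) and -0.62 for Per3 (4.77%), and it was 0.16 for Per1, 0.12 for Clock and 0.080 for Per2. Arntl was thus higher, and Dbp and Nr1d1 lower, on the array of slide 1 than on the 2 arrays of slide 2. Replicates 2 and 3 also share a date in their sample titles that replicate 1 does not have. Slide, date, mouse and the hour of collection, which is not given, cannot be told apart within this group. DMSO replicates 2 and 3 carry that same date and lay on slide 1, where their Dbp values of 1.85 and 2.08 and Arntl values of 2.16 and 2.04 were unlike those of rapamycin replicates 2 and 3. The 6 challenged arrays lay on slide 2 and had Dbp values from 1.92 to 4.18 and Arntl values from 0.33 to 1.53.

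**Figure D2:**
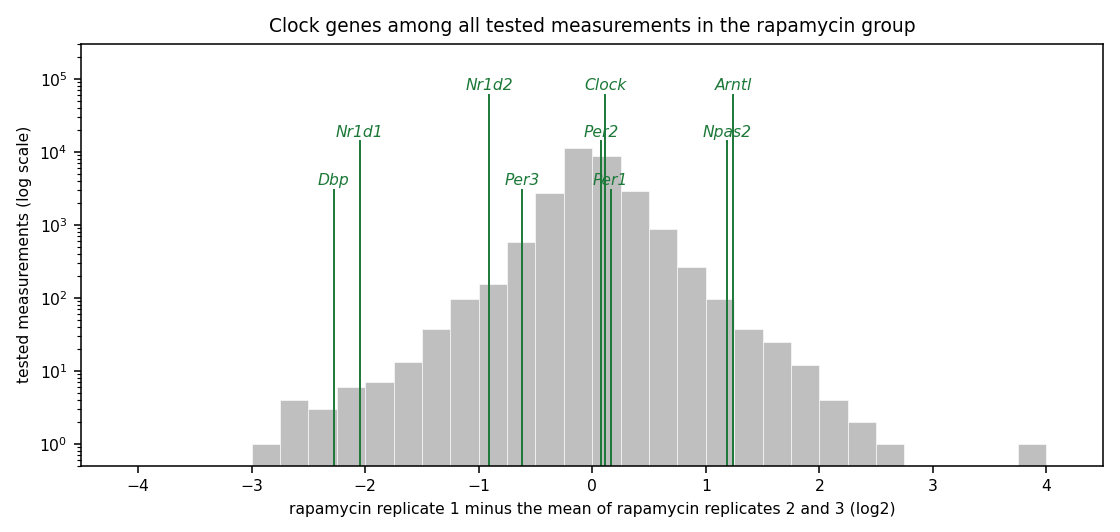
Number of tested measurements (vertical log axis) by the difference of rapamycin replicate 1 from the mean of rapamycin replicates 2 and 3 (horizontal axis, log2 units), with vertical lines at the 9 tested clock genes. Dbp at -2.28 and Nr1d1 at -2.05 lie far out on the negative side, Arntl at 1.24 and Npas2 at 1.18 on the positive side, and Per1, Per2 and Clock lie in the centre.

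The members were also averaged over each arm of the clock. The mean log2 difference from the DMSO mean over Arntl, Clock and Npas2 was -0.16 on rapamycin replicate 1, -0.88 and -1.14 on rapamycin replicates 2 and 3, between -0.69 and -0.41 with BA+DMSO and between -0.77 and -0.38 with BA+rapamycin. Over the 6 genes Per1, Per2, Per3, Nr1d1, Nr1d2 and Dbp it was 0.97, 1.87 and 1.93 in rapamycin, between -0.068 and 0.96 with BA+DMSO and between -0.13 and 0.59 with BA+rapamycin. All 3 rapamycin arrays were above the 9 others in this second mean, the lowest of them (0.97) next to a BA+DMSO array (0.96). The activators did not move together on every array. On the BA+rapamycin arrays Arntl differed from the DMSO mean by -1.68 to -1.08 and Clock by -0.97 to -0.88. Npas2 differed by 0.27 to 1.02 there, and on BA+DMSO replicate 2 Arntl was at -1.80 and Npas2 at 1.51. The arrays just named were the dimmest (74.6 to 109 intensity units), and fits with brightness as a covariate are given below. On rapamycin replicates 2 and 3 Arntl (-1.45 and -1.33) and Npas2 (-0.96 and -2.00) both lay below the DMSO mean. These means are descriptions without a test.

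**Figure D3:**
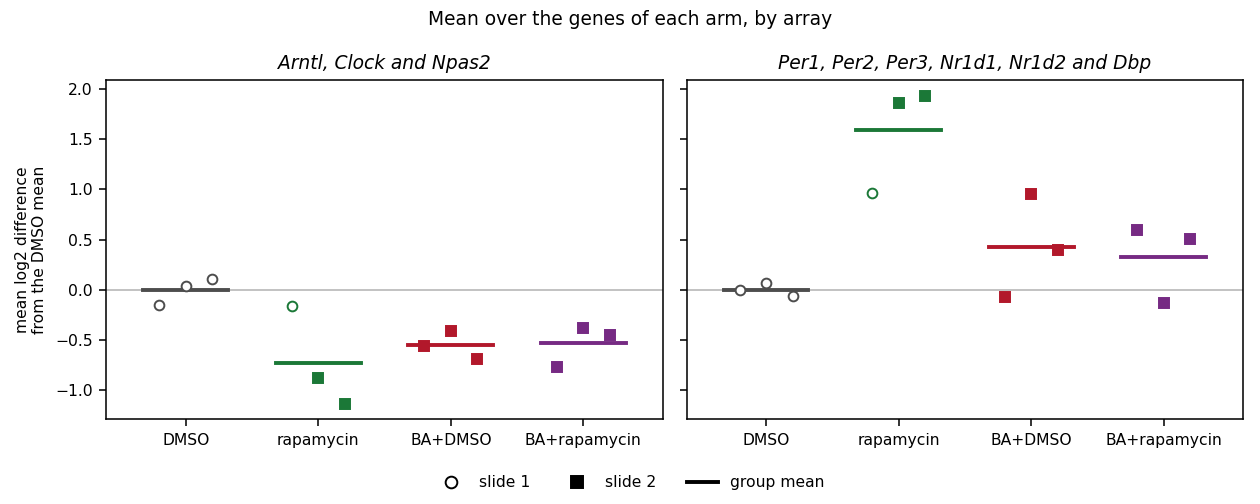
Mean log2 difference from the DMSO mean over Arntl, Clock and Npas2 (left) and over Per1, Per2, Per3, Nr1d1, Nr1d2 and Dbp (right), with a point for each array, open circles for slide 1, filled squares for slide 2 and lines for group means. The rapamycin arrays of slide 2 are the lowest on the left, at -0.88 and -1.14, and the highest on the right, at 1.87 and 1.93.

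Rapamycin alone was compared with DMSO to ask what the drug does in the unchallenged aorta. No clock gene was called, and 0.0036% of all tested measurements were. At an unadjusted p under 0.05 there were 6 of the 9 genes, against 4.27% of all tested measurements. That count was 4 without DMSO replicate 1 (3.76% of all), DMSO replicate 2 (2.15%) or rapamycin replicate 3 (2.6%). It was 8 without BA+DMSO replicate 2 (8.53%). Fitting the slide as a block leaves only rapamycin replicate 1 against DMSO, the differences given below within slide 1. The groups did not overlap for 7 of the 9, against 21.5%. Nr1d2 was higher by 1.93 (SE 0.32, 95% interval 1.22 to 2.64, 3.81-fold, limma p 9.5e-05, adjusted p 0.358). Dbp was higher by 2.43 (SE 0.57, 5.39-fold, limma p 0.0014, adjusted p 0.554) and Nr1d1 by 2.32 (SE 0.58, 4.98-fold, limma p 0.00199, adjusted p 0.6). The differences were 0.93 for Per1 and 0.79 for Per2, with limma adjusted p values of 0.922 and 0.981, and -0.98 for Arntl, with one of 1.00. Per3 differed by 1.14 without overlap of the groups, and Npas2 by -1.08 and Clock by -0.12 with overlap.

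Within slide 1, where 1 rapamycin array faces the 3 DMSO arrays, the differences were smaller for most of these genes. Rapamycin replicate 1 exceeded the DMSO mean by 1.32 for Nr1d2, 1.04 for Per1, 0.95 for Nr1d1, 0.91 for Dbp and 0.84 for Per2, and its difference for Arntl was -0.15. It differed by 0.73 for Per3, -0.29 for Npas2 and -0.042 for Clock. Between rapamycin and DMSO replicates 2 and 3, which share a title date but not a slide, the differences were 3.28 for Nr1d1, 3.21 for Dbp, 2.31 for Nr1d2, 0.78 for Per1, 0.60 for Per2 and -1.36 for Arntl. They were 1.20 for Per3, -1.75 for Npas2 and -0.14 for Clock. Per1 and Per2 thus differed by similar amounts in both comparisons, while Dbp, Nr1d1 and Arntl did not. Known targets of glucocorticoid hormone, among which Per1 is also counted, were highest on rapamycin replicates 1 and 3, with median differences from the DMSO mean of 1.26 and 1.50 against 0.39 on replicate 2, and 0 of 7 were called in rapamycin alone. Other marker lists also lay outside the DMSO range on all 3 rapamycin arrays. Their median differences from the DMSO mean were -1.11 to -0.87 for proliferation genes and 0.26 to 0.91 for neutrophil genes. They were 0.15 to 0.54 for endothelial genes and 0.15 to 0.35 for brown adipocyte genes (up to 0.14 in DMSO). None of the tested genes in these lists was called in rapamycin alone. Only 3 of 5 neutrophil and 4 of 5 brown adipocyte genes were tested, and their medians include the untested, dim ones. The part of these lists in the clock gene values was not tested.

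The challenge was compared with DMSO among mice on vehicle. Of the 9 genes 2 were called, both lower, where 20.5% of all tested measurements were called, 9.65% higher and 10.8% lower, so the count is close to the share of the whole array. Arntl fell by 1.14 on the log2 scale (SE 0.37, 95% interval -1.95 to -0.33, limma adjusted p 0.0494) and Per2 fell by 0.94 (SE 0.27, 95% interval -1.54 to -0.35, limma adjusted p 0.0325). The difference was 1.66 for Dbp (SE 0.57, limma adjusted p 0.0633) and -0.53 for Clock (SE 0.20, limma adjusted p 0.0884), and neither was called. These 4 genes were also those whose groups did not overlap, against 34.6% of all tested measurements. The remaining 5 gave 0.87 for Per3, 0.79 for Nr1d1, 0.49 for Nr1d2, 0.012 for Npas2 and -0.29 for Per1. The median over the 9 genes was 0.012 and that over all tested measurements -0.045. Without rapamycin replicates 2 and 3, a setting chosen after the values were seen, Dbp was called and Per2 was not. Their differences, 1.66 and -0.94, were the same in that fit.

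Both calls were lost with the slide as a block, and slide and challenge cannot be told apart among these mice. In that fit, an estimate whose slide term rests on the rapamycin group alone, with 1 array on slide 1, the difference was 0.10 for Arntl (limma adjusted p 0.954), -0.86 for Per2 (0.579) and -0.62 for Dbp (0.748). For Nr1d1 it was -1.26 and for Nr1d2 -0.42, so these 2 genes turned, as Dbp did. The others were 1.20 for Npas2, 0.25 for Per3, -0.13 for Per1 and -0.42 for Clock. Arntl also lost its call when any of DMSO replicates 1 to 3, rapamycin replicates 2 or 3, BA+DMSO replicates 1 or 2 or any BA+rapamycin array was left out (adjusted p 0.0554 to 0.137), and Per2 when DMSO replicates 2 or 3, rapamycin replicate 1 or BA+DMSO replicates 1 or 3 were (0.05 to 0.116).

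Rapamycin under challenge, BA+rapamycin against BA+DMSO, gave no called clock gene, where 0.281% of all tested measurements were called. None of the 9 genes reached an unadjusted p under 0.05, against 20.1% of all tested measurements, and the groups overlapped for all 9 by their main measurement, where 14.5% of all tested measurements did not. The widest difference was -1.13 for Dbp (SE 0.57, 95% interval -2.40 to 0.13, limma adjusted p 0.279), followed by 0.70 for Npas2 and -0.49 for Nr1d1. The 95% intervals still allowed differences from -1.06 to 0.57 for Arntl, from -0.32 to 0.87 for Per2 and from -0.63 to 0.79 for Nr1d2. The 2 Nr1d2 measurements differed in sign, at 0.079 and -0.32, and the second Dbp measurement gave -1.37 without overlap of the groups. Without BA+DMSO replicate 2, the array with the lowest Arntl and the highest Npas2 and Per3 values, 1 of the 9 genes was called, against 39.9% of all tested measurements in that fit.

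**Figure D4:**
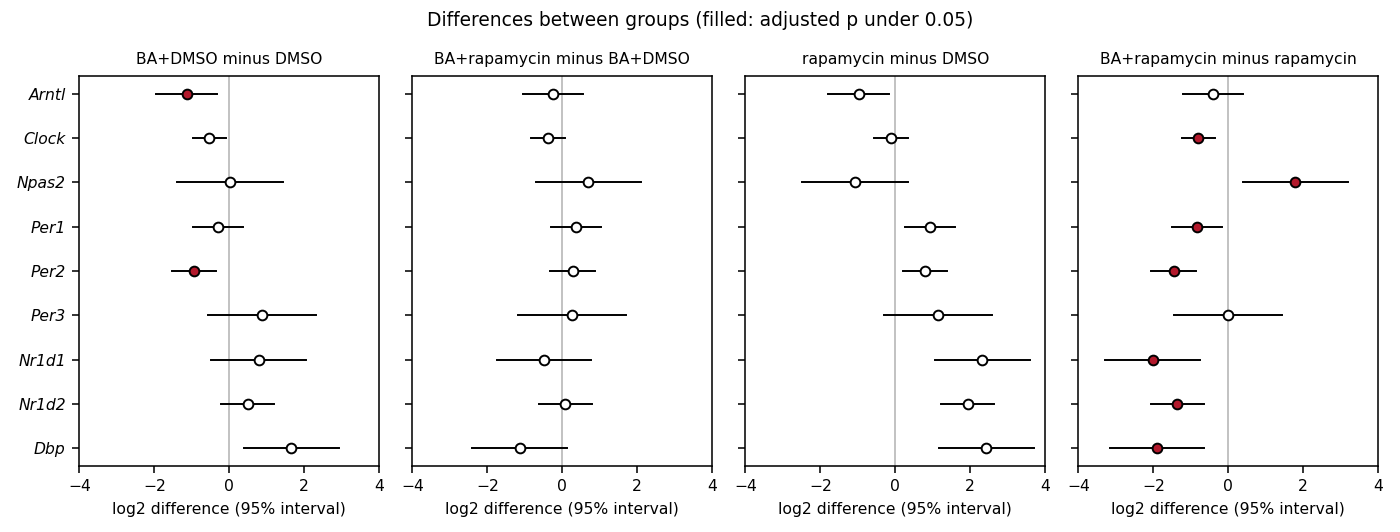
Log2 difference between groups (horizontal axis) with its 95% interval for the 9 tested clock genes in 4 comparisons, filled where the adjusted p was under 0.05. Filled points are Arntl and Per2 in the first panel and 7 genes in the last, and the widest positive differences are those of Dbp (2.43), Nr1d1 (2.32) and Nr1d2 (1.93) in the panel of rapamycin minus DMSO.

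The challenge under rapamycin set BA+rapamycin against rapamycin and shares the rapamycin arrays with the comparison of rapamycin alone. Of the 9 genes 7 were called, 1 higher and 6 lower, where 41.7% of all tested measurements were called, 18.9% higher and 22.9% lower. The groups did not overlap for the same 7 genes, against 65.9% of all tested measurements. Nr1d1 fell by 2.02 (SE 0.58, limma adjusted p 0.0184), Dbp fell by 1.91 (SE 0.57, 0.0227), Per2 fell by 1.46 (SE 0.27, 0.00292) and Nr1d2 fell by 1.36 (SE 0.32, 0.00861). Per1 fell by 0.84 (limma adjusted p 0.0439) and Clock fell by 0.80 (0.0118), and Npas2 rose by 1.79 (0.0436). Arntl differed by -0.41 (limma adjusted p 0.383) and Per3 by -0.0051. For Dbp the highest BA+rapamycin array (2.89) and the lowest rapamycin array (2.90) all but met, and for the second Dbp measurement (-2.21, limma adjusted p 0.0221) the groups overlapped, at 2.87 and 2.81. The median over the 9 genes was -0.84, against -0.085 over all tested measurements. Beside Per1, which also responds to stimulation and to glucocorticoids, 5 of 6 immediate early genes and 5 of 7 glucocorticoid targets were called lower in this comparison, and their part in the Per1 result was not tested. In the challenge on vehicle 5 of 6 immediate early genes were also called lower (median -1.82, against -1.72 here), while Per1 was not called there (-0.29, limma adjusted p 0.523). Of the cell type markers, 2 of 5 endothelial genes were called lower in this comparison, 2 of 4 T and B cell genes higher, 2 of 4 brown adipocyte genes lower and 1 higher, 1 of 4 striated muscle genes lower, and of 6 smooth muscle genes 1 higher and 1 lower, and none of the neutrophil, nerve or white adipocyte genes was called.

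Within slide 2, with rapamycin replicates 2 and 3 only, the differences were -2.70 for Nr1d1, -2.67 for Dbp, -1.66 for Nr1d2, -1.43 for Per2, -0.79 for Per1, -0.76 for Clock, 2.19 for Npas2 and 0.0056 for Arntl. With the slide as a block Per1 was no longer called (limma adjusted p 0.112). Without rapamycin replicates 2 and 3 together, a setting chosen after the values were seen, none of the 9 genes was called, against 3.23% of all tested measurements, and the differences were -0.65 for Nr1d1, -0.39 for Dbp, -0.75 for Nr1d2 and -1.51 for Per2, against the lone rapamycin replicate 1, which is assumed to vary like the other groups. Per2 and Clock (-0.87) stayed near their values there, and Dbp and Nr1d1 did not. Arntl went to -1.24 in that fit (limma p 0.0189, adjusted p 0.127), against 0.0056 within slide 2 and -0.41 over all arrays. Array brightness also moves with this comparison, and with it as a covariate 1 of the 9 genes, against 6.42% of all tested measurements, was called (Per2, -1.94, limma adjusted p 0.0367), and Npas2 turned to -0.94. In that fit the difference was -0.12 for Clock, -0.68 for Nr1d2, -1.13 for Nr1d1, -1.44 for Dbp and -1.21 for Per1, so that only Per2 and Per1 among the 7 called genes were not nearer to 0 or turned.

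The count was 4 without rapamycin replicate 2, 3 without rapamycin replicate 3 and 3 without BA+rapamycin replicate 2, against 30.3%, 23.5% and 28.3% of all tested measurements in these fits. Nr1d1 and Dbp lost their calls in each of these fits (limma adjusted p 0.0602 to 0.0908). Npas2 lost its call without any 1 of DMSO replicates 1 to 3, rapamycin replicates 2 or 3, BA+DMSO replicate 1 or BA+rapamycin replicates 1 to 3 (0.0525 to 0.162). Per1 lost it without DMSO replicate 1, rapamycin replicates 1 or 3, BA+DMSO replicate 1 or BA+rapamycin replicates 1 or 2 (0.055 to 0.15).

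The interaction, rapamycin under challenge minus rapamycin alone, asked whether the difference made by rapamycin was the same on both backgrounds. No clock gene and 0% of all tested measurements were called. At an unadjusted p under 0.05 there were 3 of the 9 genes, against 6.12% of all tested measurements, namely Dbp (-3.56, SE 0.81, limma p 0.00107, adjusted p 0.494), Nr1d1 (-2.80, SE 0.81, limma p 0.00544, adjusted p 0.613) and Nr1d2 (-1.85, SE 0.46, limma p 0.00196, adjusted p 0.494). With the slide as a block the rapamycin arm is replicate 1 alone, and the values, given without a test, were -2.05 for Dbp, -1.24 for Nr1d2 and -1.44 for Nr1d1. Without BA+DMSO replicate 2, 2 of the 9 genes were called, against 11% of all tested measurements.

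A list of 26 other clock and clock output genes, all on the array and 24 of them tested, was read beside the 9 members. In the challenge 8 of the 24 were called, 4 higher and 4 lower, against 20.5% of all tested measurements, and the list's median was 0.012. Nfil3, which opposes DBP at D-boxes, fell by 2.28 (SE 0.52, limma adjusted p 0.0133), and Bhlhe40, which codes for the repressor DEC1, rose by 2.07 (SE 0.31, 0.00177). Btrc, part of a ubiquitin ligase that marks PER proteins for breakdown, fell by 1.44, and Csnk1d, a kinase that phosphorylates PER, fell by 0.68. Timeless, which also acts at DNA replication forks, rose by 1.70, Tspan4 rose by 1.25 and Klf10 rose by 1.12. The proliferation marker Mki67 rose by 4.31 in the same comparison, and its part in the Timeless result was not tested. With the slide as a block none of the 24 genes was called by limma, and 0.054% of all tested measurements were.

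Of the 24 genes 16 were called in the challenge under rapamycin, 6 higher and 10 lower, against 41.7% of all tested measurements, with a list median of -0.26. Timeless rose by 1.84, Bhlhe41 (DEC2) rose by 1.74, Arntl2, a paralog of Arntl, rose by 1.67, Bhlhe40 rose by 1.07 and Tspan4 rose by 0.98. Wee1, a kinase that holds cells before mitosis, fell by 1.88 and Nampt, an enzyme of NAD synthesis, fell by 1.85. Hlf and Tef, which code for relatives of DBP, fell by 1.48 and 1.10, and Cry2, the other cryptochrome, fell by 0.89. Falls were also seen for Btrc (-1.35), Klf9 (-1.30), Lonrf3 (-1.10) and Csnk1d (-0.69). Klf9 is also counted among the glucocorticoid targets called lower in this comparison. With the slide as a block the count was 10, against 28.5% of all tested measurements, and without rapamycin replicates 2 and 3 it was 3, against 3.23%.

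In rapamycin alone, rapamycin under challenge and the interaction none of the 24 genes was called. The widest differences of rapamycin alone were -1.80 for Nfil3, 1.20 for Bhlhe40 and 1.10 for Wee1, those of rapamycin under challenge were -1.07 for Lonrf3, -0.89 for Wee1 and -0.88 for Nampt, and those of the interaction were -1.99 for Wee1, 1.84 for Nfil3 and 1.18 for Arntl2. Nfil3 gave 4.04, 4.79 and 4.84 in DMSO, 4.20, 1.93 and 2.15 in rapamycin, 2.23, 1.88 and 2.72 in BA+DMSO and 2.30, 2.76 and 1.92 in BA+rapamycin. The 4 arrays of slide 1 lay between 4.04 and 4.84 and the 8 arrays of slide 2 between 1.88 and 2.76. Nfil3 thus split the arrays by slide as Arntl did, with a wider gap.

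**Figure D5:**
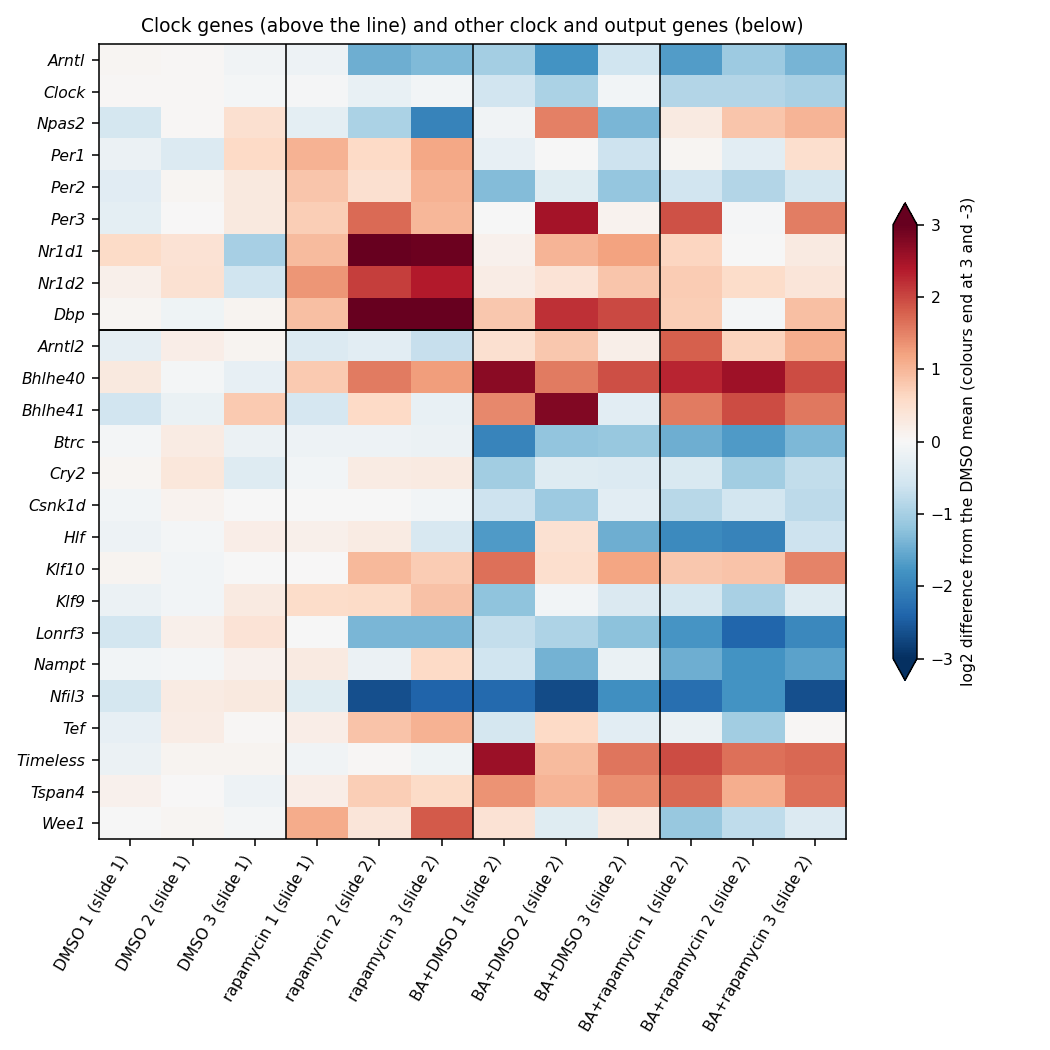
Log2 difference from the DMSO mean (colour, red higher and blue lower, ending at 3 and -3) of the 9 tested clock genes and of 16 named other clock genes (rows) on the 12 arrays (columns, with the slide in brackets). The 2 rapamycin arrays of slide 2 are dark red for Nr1d1 and Dbp and dark blue for Nfil3, while the rapamycin array of slide 1 is pale for Nfil3 and Arntl.

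Genes whose pattern over the 12 arrays was most like that of Arntl were sought among 15662 genes well above background on all arrays. They were Nfil3 (Pearson r 0.93), Leo1 (0.90), Elp2 (0.88), Ankrd27 (0.87) and Btg1 (0.87). After the group means were removed they included Alkbh5 (0.92), Chst11 (0.91), Ing3 (0.89) and Leo1 (0.88), so Leo1 was in both sets. For Dbp they were Apoa2 (0.95), Nr1d1 (0.88), Ahsg (0.83), Trim47 (0.82) and Fam46b (0.80), and with group means removed Spr (0.95), Apoa2 (0.95), Setd5 (0.93), Alkbh2 (0.93) and BC051226 (0.93). Apoa2 was in both sets for Dbp. It gave 1.49 to 1.55 in DMSO, 1.70, 2.07 and 2.03 in rapamycin, 1.66, 1.97 and 1.84 in BA+DMSO and 1.69, 1.65 and 1.81 in BA+rapamycin, so its range was narrow. Apoa2 and Ahsg are known as liver genes, and the liver markers Apoa1, Ttr and Alb were well above background on 0, 1 and 4 of the 12 arrays. These correlations are descriptions over 12 arrays that share slides, brightness and groups.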

How the data were processed

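RNA was measured in the aorta of 12 mice, 1 array each, and arrays were grouped by their treatment labels into 4 groups of 3, with replicates numbered by their place among the deposited samples. Cy3-labelled RNA was hybridised by the authors to 1-colour Agilent mouse arrays. Per the file headers the scans were read with Feature Extraction 10.7.1.1 (the submitters' processing notes name 9.5.1.1), the probes are placed on mm9, and the deposited processed signal, spot mean and local background are intensity on a linear scale, with other columns holding 0 or 1 flags per spot. The deposited matrix holds intensity, and its columns followed a quantile-normalized version of the same signal with correlations no lower than 0.9999.

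Outlier spots were removed from 62976 spots per array, the log2 processed signal was averaged per probe (55681 probes, 6 without a value on some array dropped), and each array's 75th percentile was subtracted. Testing was limited to the 27801 probes with 0.5 or more of their spots marked well above background throughout 1 or more of the groups. A gene stood by its tested probe with the highest mean. All 12 arrays entered 1 limma 3.58.1 model of group means with variances moderated by eBayes, under R 4.3.3 with files read through data.table (its version was 1.17.8), two-sided, with Benjamini-Hochberg adjustment within each contrast. The number of arrays limits the precision, and p values measure the spread between mice of 1 study. The model code was run on simulated data with independent normal values and 1 spread per probe. That simulation held no slide, date or brightness differences and no unequal spread between groups, so it does not speak to these. All members were to be named with their values, as were the other clock genes called in the challenge or the challenge under rapamycin or among the 3 widest of a contrast, and the 5 genes most like Arntl and Dbp. Some genes that this rule names are not reported here, although counts include them. The members and lists were chosen with earlier results of these data known. Alternatives were other normalizations and filters, blocks for slide and title date, a brightness covariate, array weights, the study's rule (unadjusted p under 0.01 with a fold over 4 or under 0.25) and leaving out arrays. Marker lists of the cell types that the vessel sample could hold were counted in the same fit.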

Additional observations from a re-analysis of the deposited data

Results flagged for a closer look

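For 3 clock genes every rapamycin array moved one way from the DMSO mean and every BA+rapamycin array the opposite way from the BA+DMSO mean, as did 10% of all 27801 tested measurements. These 3 were picked for this pattern. Dbp was 0.91 to 3.27 above the DMSO mean in rapamycin and lay -1.73 to -0.76 from the BA+DMSO mean in BA+rapamycin, an interaction of -3.56 (limma p 0.00107, adjusted p 0.494). Nr1d1 was 0.95 to 3.07 above in the first and lay -0.80 to -0.14 from the mean in the second, an interaction of -2.80 (limma p 0.00544, adjusted p 0.613). Npas2 lay -2.00 to -0.29 from the DMSO mean in the first and 0.26 to 1.01 above the BA+DMSO mean in the second, an interaction of 1.78 (limma p 0.0751, adjusted p 0.737). None of the 3 passed the adjustment over all tested measurements. The rapamycin values differed between the array of slide 1 and the 2 arrays of slide 2 for each of these genes. With the slide as a block, where the rapamycin arm is replicate 1 alone, the interaction was -2.05 for Dbp, -1.44 for Nr1d1 and 0.99 for Npas2, given without a test.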

How the results depend on the processing

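Counts are of called clock genes among the 9 tested, with the share of all tested measurements called in the same fit in brackets, and the cause of a change was not tested. In the challenge the count of 2 (20.5%) became 1 under quantile normalization (19.7%), normexp background correction (23.7%) and the deposited matrix (19.6%). It became 0 under a 75th percentile over detected probes (21.3%), no filter (7.65%), the slide as a fixed block (0.054%), the title date as replicate block (6.16%), the 2 groups alone (4.47%), array weights, whose estimate stopped before it converged (0.403%), and the study's rule (2.51%), and it was 0 to 2 when an array was left out (7.38% to 38%). With array brightness as a covariate it was again 2 (18.3%), with Per2 in both, but Arntl lost its call (-0.79, adjusted p 0.255) and Npas2 gained one (-1.55, adjusted p 0.032). In the challenge under rapamycin 7 (41.7%) became 2 with the title date as replicate block (13%), 1 with array brightness as a covariate (6.42%) or by the study's rule (5.14%), 3 to 7 when an array was left out (23.5% to 56.9%) and 0 without rapamycin replicates 2 and 3 (3.23%), an alternative chosen after seeing the data. Rapamycin alone gave 4 with array weights (5.44%) and 2, Dbp and Nr1d1, by the study's rule (0.0216%), and 0 to 0 when an array was left out (0% to 0.0144%). When an array was left out, rapamycin under challenge gave 0 to 1 (0.108% to 39.9%) and the interaction 0 to 2 (0% to 11%), and the interaction gave 2 by the study's rule (0.212%). Of the 24 other clock genes, whose alternatives were chosen after seeing the data and to which the same shares apply, 8 called in the challenge became 5 with no filter or the brightness covariate, 4 with the title date as replicate block or the 2 groups alone, 0 with the slide block or array weights, 5 without rapamycin replicates 2 and 3 (11.5%) and 4 to 11 when an array was left out. Their 16 calls in the challenge under rapamycin became 10 with the slide block (28.5%), 2 with the title date as replicate block or the brightness covariate, 3 without rapamycin replicates 2 and 3 and 9 to 18 when an array was left out. Arntl in the challenge turned to 0.10 with the slide block, and Npas2 in the challenge under rapamycin to -0.94 with the brightness covariate. Dbp (-0.62), Nr1d1 (-1.26) and Nr1d2 (-0.42) in the challenge, none of them called, also turned with the slide block. Over 15 named differences and 375 alternatives, 294 kept direction and side of the threshold, 75 lost a call and 4 gained one. The 15 were the 2 calls in the challenge, the 7 in the challenge under rapamycin and 6 uncalled differences of rapamycin alone. Each of these 6 kept its side in 24 or 25 of 25 alternatives by staying uncalled, so the 294 do not measure how stable the calls were. All of the 75 losses were among the called differences. In the challenge Arntl lost its call in 18 of 25 alternatives and Per2 in 13. In the challenge under rapamycin the losses were 14 of 25 for Per1, 10 for Npas2 and 6 each for Nr1d1 and Dbp. There were 3 each for Clock and Nr1d2 and 2 for Per2. Over all tested measurements, deviations from the group mean correlated at -0.35 to 0.17 between arrays of 1 title date in different groups. Some group means rest largely on arrays of 1 date, so these correlations cannot decide whether the date matters for the clock genes. The date, present for 10 arrays, was not used as a pairing in the main fit. The median of all tested measurements in the challenge under rapamycin was -0.085, -0.18 under quantile normalization, 0.14 under normexp and 0.10 over detected probes. An interaction could not be fitted on 2 groups alone. Dim signal limits Cry1 and Per3.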
